A study of Mus musculus with 6 samples.

Results

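The 8 genes described here encode kinases that phosphorylate SR proteins and other proteins of nuclear speckles. They are the Cdc2-like kinases Clk1, Clk2, Clk3 and Clk4, the SR protein kinases Srpk1 and Srpk2, and the dual-specificity tyrosine-regulated kinases Dyrk1a and Dyrk3. They were chosen by name, with earlier results of these data known. All 8 were found among the 42450 genes of the count table and passed the filter on low counts. Total RNA was sequenced from 3 cultures of the mouse embryonic stem cell (mESC) line E14tg2a.4, wild-type at Srrm2 (WT), and from 3 cultures of its derivative CG0630, in which a gene-trap cassette truncates 1 allele of Srrm2 (Srrm2+/-). Both male lines were grown on gelatin with leukemia inhibitory factor (LIF) and kept in serum-free medium with LIF before collection. Srrm2+/- is a single gene-trap line, and per the study's methods the WT cells had been frozen at later passages, so genotype, clone and passage cannot be told apart. The replicates were thawed from separately frozen batches.

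SR proteins bind pre-mRNA and carry tails rich in arginine and serine (RS domains), and the phosphorylation of those tails sets where the proteins reside and when they enter splicing. SRPK1 and SRPK2 act largely in the cytoplasm, where they phosphorylate SR proteins before these are imported into the nucleus. The CLK kinases act in the nucleus, and their activity releases SR proteins from speckles. DYRK3 dissolves speckles and other condensates, and DYRK1A is a dosage-sensitive kinase of the Down syndrome region whose substrates include splicing factors. SRRM2, with SON, forms the core of speckles and itself carries long RS-rich stretches. The Clk1 and Clk4 genes are also known for transcripts that keep introns or skip exon 4 and give no active kinase.

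To show how much sequence the paralogs share, the longest identical run between the coding sequences of each pair was taken from the transcripts of GENCODE release M21. The runs are printed 5′ to 3′ on the coding strand, with the identical part in capitals and 12 bases of each gene on both sides.
Clk1: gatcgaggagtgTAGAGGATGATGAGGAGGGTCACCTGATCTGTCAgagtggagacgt
Clk4: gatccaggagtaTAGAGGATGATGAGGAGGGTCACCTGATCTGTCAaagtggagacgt
Clk2: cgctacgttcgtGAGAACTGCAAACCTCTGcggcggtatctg
Clk3: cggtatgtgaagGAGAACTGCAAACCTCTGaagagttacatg
Srpk1: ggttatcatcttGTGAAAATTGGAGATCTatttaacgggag
Srpk2: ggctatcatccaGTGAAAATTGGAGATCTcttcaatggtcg

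The run of Clk1 and Clk4 was 34 bases long and lay in exon 4 of 13 in both genes, at chr1:58420135-58420192 on the minus strand and chr11:51273097-51273154 on the plus strand (GRCm38, flanks included). That of Clk2 and Clk3 was 18 bases and that of Srpk1 and Srpk2 17 bases. For Dyrk1a and Dyrk3 it was 11 bases. Of the 31-base words in the annotated transcripts of Clk1, 0.432% occurred in Clk4, and of those of Clk4, 0.595% occurred in Clk1. Larger shares were held in common with genes on the opposite strand. In Clk3, 14.4% of the words also occurred in Edc3, which overlaps it by 1284 exonic bases, and in Srpk2 6.89% occurred in Kmt2e, which overlaps it by 972. The library kit keeps the strand, but the strand setting used in counting was not given in the sources used here. BC049762 in Clk4, Gm24009 and Gm43566 in Srpk2, and Gm15971 in Dyrk1a overlap the kinase genes by 0 exonic bases. Over all other genes the shared part was 1.01% for Clk1, 0.868% for Clk2, 2.1% for Clk4, 7.4% for Srpk1 and 0.133% for Dyrk1a, and no word of Dyrk3 (0 of 3175) was shared.

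The annotation lists many transcripts that give no full kinase. Clk1 (chr1:58410189-58424066, minus strand) has 13 annotated transcripts, of which 7 retain an intron, 2 are targets of nonsense-mediated decay and 1 is protein coding. Clk4 (chr11:51261730-51281766, plus strand) has 14, of which 7 retain an intron and 3 are decay targets. Clk2 (chr3:89164795-89176921, plus strand) and Clk3 (chr9:57750624-57765860, minus strand) each have 4 with a retained intron. Srpk1 (chr17:28587648-28622709, minus strand) has 6 and Srpk2 (chr5:23503264-23684617, minus strand) has 3. Dyrk1a (chr16:94570010-94695517, plus strand) has 1 and Dyrk3 (chr1:131127455-131138340, minus strand) has 0. The counts were summed over all transcripts of a gene, so the levels below do not tell coding RNA from intron-retaining RNA.

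Library totals lay between 54151433 and 58499765 estimated counts in WT and between 61022915 and 69933421 in Srrm2+/-, so the Srrm2+/- libraries were all deeper. Srrm2 itself was at 95.7 ± 3.94 CPM (counts scaled to a common library size) in WT and 59.3 ± 3.02 in Srrm2+/- (± SD, n = 3), with no overlap. Of the markers of pluripotent cells, Pou5f1, Sox2, Nanog, Zfp42 and Esrrb were all present. Their summed level was 2908 to 3009 CPM in WT and 2389 to 2490 CPM in Srrm2+/-. Of the 5, 4 were called lower in Srrm2+/- (edgeR adjusted p under 0.05), beside 11.7% of all genes tested. Pou5f1 was not called, with a log2 fold change of -0.04 (edgeR adjusted p 0.485). The 6 fibroblast markers summed to 3.47 to 3.68 CPM in WT and 6.94 to 10.8 CPM in Srrm2+/-. Of the 6, 4 (Col1a1, Col1a2, Col3a1 and Postn) were called higher, 66.7% beside 13.6% of all genes tested. Thy1 went the other way (log2 fold change -0.70, edgeR adjusted p 0.0939) and was not called, nor was Pdgfrb (0.23, edgeR adjusted p 0.685). The 5 primitive endoderm markers summed to 1.92 to 2.15 and 1.57 to 1.99 CPM, and the 5 trophectoderm markers to 1.83 to 1.89 and 2.36 to 2.79 CPM. Cdx2, which did not pass the filter on low counts, had 0 counts in every WT library and 5, 8 and 17 in the Srrm2+/- libraries. By edgeR, 1 of the 3 trophectoderm markers tested (Eomes) was called higher, a call kept under 5 of 13 alternatives (highest adjusted p 0.139) and lost with DESeq2, the filter of 1 count, the replicate block and the omission of any library but WT replicate 2, and the 4 primitive endoderm markers tested did not pass, 1 of them with an unadjusted p under 0.05. The part of these cell types in the results below was not tested, and in bulk RNA fewer cells of a type cannot be told apart from less RNA per cell.

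Srrm2+/- was compared with WT to see whether RNA of these kinases differs when 1 copy of Srrm2 is truncated. Clk1 RNA fell and Clk3 RNA rose, and the other 6 kinases did not pass the threshold (edgeR adjusted p under 0.05). That is 25% of the members, while 25.3% of the 18905 genes tested were called, 13.6% higher and 11.7% lower. The groups did not overlap for the same 2 kinases, again 25%, against 41.4% of all genes tested (21.4% higher and 20% lower). At an adjusted p under 0.01, Clk1 alone was called, against 14.7% of all genes. The median log2 fold change of the 8 kinases was 0.00952, and that of all tested genes was -0.00254. The share of the kinases called was thus near that of all genes.

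**Figure D1:**
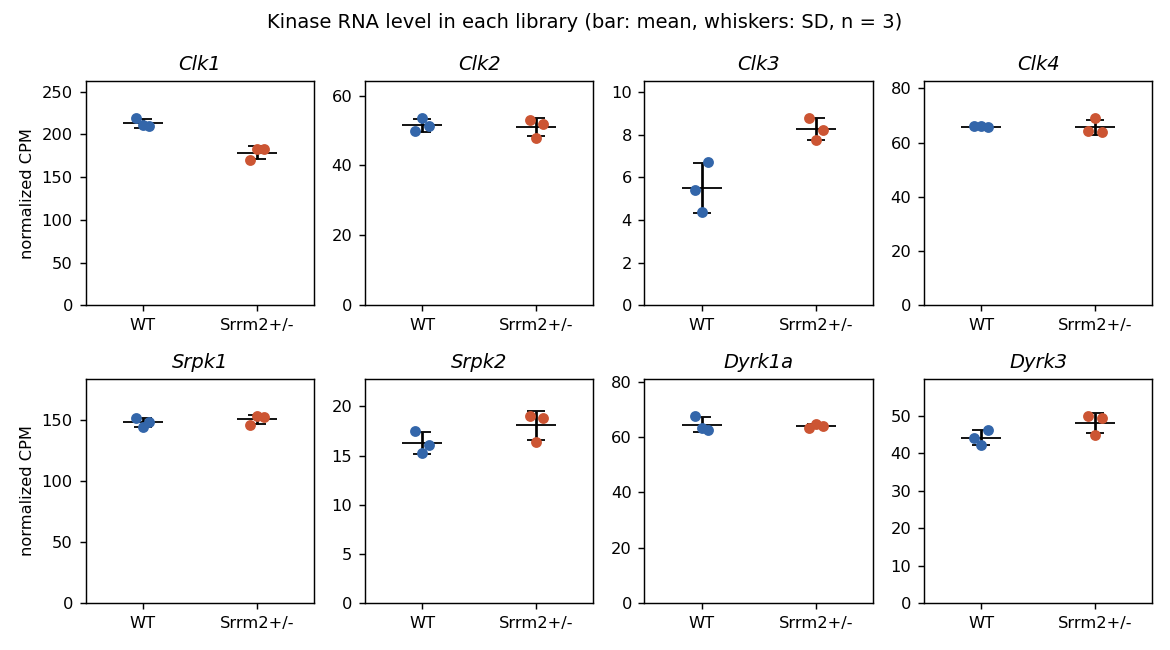
Normalized CPM (y axis, from 0) of each of the 8 kinases in the 3 WT and 3 Srrm2+/- libraries; points are libraries, bars are means and whiskers are SD. The groups are apart for Clk1 (209 to 219 against 169.7 to 183) and for Clk3 (4.38 to 6.74 against 7.74 to 8.77), and they overlap for the other 6.

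Among the CLK kinases, Clk1 was the most abundant and the one that fell. Its levels were 219, 210.4 and 209 CPM in WT and 169.7, 183 and 183 CPM in Srrm2+/-. Every Srrm2+/- library lay below every WT library. The mean went from 213 ± 5.13 to 179 ± 7.69 CPM (± SD, n = 3), a log2 fold change of -0.25 (edgeR adjusted p 0.00294, SE 0.04, 95% interval -0.35 to -0.15), or 0.839 of the WT level. Across all 14 alternative settings it stayed lower and past the threshold, between -0.27 and -0.22. Before scaling to the deeper Srrm2+/- libraries, the ratio of the mean counts was 1.004. Of the tested genes, taken at all levels, 58.5% had a log2 fold change that was no larger in absolute value. The WT level of Clk1 was at or above that of 95.8% of them. The size of its change was not compared with that of genes of like level.

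Clk4, the closest relative of Clk1, was at 65.9, 66.2 and 65.6 CPM in WT and at 64.1, 68.9 and 64.0 CPM in Srrm2+/-. The WT values lay inside the Srrm2+/- range. The log2 fold change was -0.00505 (edgeR adjusted p 0.949, SE 0.04, 95% interval -0.0997 to 0.0896). A change of the size of that of Clk1 lies outside this interval. Clk4 shares 59 exonic bases with Gm25082, a small RNA gene on its own strand that did not pass the threshold (edgeR adjusted p 0.322).

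Clk2 levels were 49.7, 53.5 and 51.3 CPM in WT and 52.9, 48.0 and 51.8 CPM in Srrm2+/-. The groups overlapped throughout, with a log2 fold change of -0.02 (edgeR adjusted p 0.844, SE 0.05, 95% interval -0.13 to 0.10).

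Clk3 was the rarest member in WT and the one with the largest change. It had 299, 253 and 361 estimated counts in WT and 607, 534 and 509 in Srrm2+/-, or 5.39, 4.38 and 6.74 against 8.77, 7.74 and 8.25 CPM. All Srrm2+/- libraries lay above all WT libraries, but the WT values spread more widely, by 1.19 CPM (SD) around 5.50, than the Srrm2+/- values, by 0.514 around 8.25. The log2 fold change was 0.59 (edgeR adjusted p 0.0187, SE 0.15, 95% interval 0.25 to 0.92), or 1.5-fold. The call was lost without WT replicate 1 (adjusted p 0.0525), without Srrm2+/- replicate 1 (0.0655) and without Srrm2+/- replicate 3 (0.0557), where fewer samples entered the edgeR fit, while the log2 fold change stayed between 0.45 and 0.76. Edc3, the decapping factor gene on the opposite strand that shares sequence with Clk3, was at 36.4, 29.0 and 28.6 CPM in WT and between 29.2 and 31.1 CPM in Srrm2+/- (log2 fold change -0.04, edgeR adjusted p 0.786, SE 0.09). Its part in the Clk3 counts was not tested.

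The genes with the profile most like that of Clk3 were Pcdhgc3, a protocadherin, Tmem98, a membrane protein, and Car14, a carbonic anhydrase. Their root mean square differences from Clk3 were 0.0293, 0.0566 and 0.0606 log2 units over the 6 libraries, among 12067 genes compared after centring each on its WT mean. Their log2 fold changes were 0.66, 0.62 and 0.70, near that of Clk3 because they were chosen for a like profile.

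In Srpk1, the main SR protein kinase of proliferating cells, the 6 libraries were close together. WT gave 152, 144 and 149 CPM and Srrm2+/- gave 146, 154 and 153 CPM. The log2 fold change was 0.02 (edgeR adjusted p 0.71, SE 0.04, 95% interval -0.06 to 0.11). Srpk2, which is known best from neurons, was at 17.5, 15.3 and 16.1 CPM in WT and at 19.0, 16.4 and 18.8 CPM in Srrm2+/-. A pair of the Srrm2+/- libraries lay above the WT range and replicate 2 lay inside it, and the difference missed the threshold (log2 fold change 0.15, edgeR adjusted p 0.197, SE 0.08, 95% interval -0.02 to 0.33). Kmt2e, which shares sequence with Srpk2 on the opposite strand, had a log2 fold change of 0.12 (edgeR adjusted p 0.143, SE 0.05).

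Dyrk1a was at 67.6, 63.3 and 62.7 CPM in WT and at 63.3, 64.7 and 64.0 CPM in Srrm2+/-. All Srrm2+/- values fell inside the WT range, with a log2 fold change of -0.01 (edgeR adjusted p 0.88, SE 0.04, 95% interval -0.11 to 0.08). Dyrk3 was at 44.1, 42.1 and 46.1 CPM in WT and at 49.9, 44.9 and 49.5 CPM in Srrm2+/-. Here Srrm2+/- replicate 2 lay among the WT libraries and the others lay above them. The log2 fold change of Dyrk3 was 0.12 (edgeR adjusted p 0.147, SE 0.06, 95% interval -0.00337 to 0.25).

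**Figure D2:**
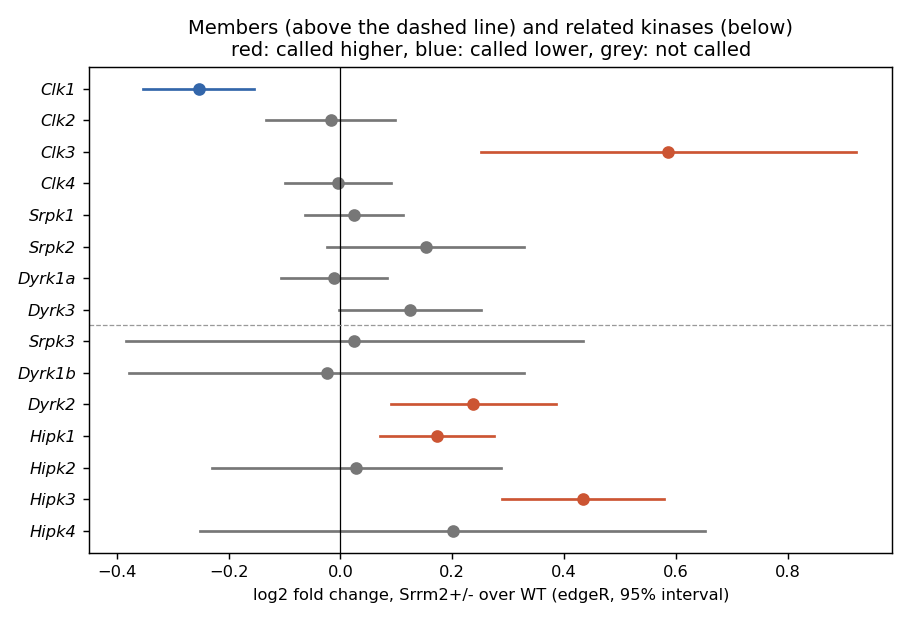
Log2 fold change of Srrm2+/- over WT (x axis) for the 8 kinases, above the dashed line, and for 7 related kinases, below it; dots are edgeR estimates and lines their 95% intervals, red for called higher, blue for called lower and grey for not called. Clk1 is the only gene to the left of 0 with an interval that excludes it, and the intervals of Clk2, Clk4, Srpk1 and Dyrk1a stay between -0.13 and 0.11.

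Levels were compared between kinases per kb of the longest coding transcript, since longer RNAs yield more counts. In WT, Clk1 was highest at 119 ± 2.85 CPM per kb, followed by Clk4 at 33.8 ± 0.154, Srpk1 at 31.9 ± 0.833 and Clk2 at 23.9 ± 0.870 (± SD, n = 3). Dyrk3 was at 13.9 ± 0.628, Dyrk1a at 11.2 ± 0.466, Srpk2 at 2.51 ± 0.175 and Clk3 at 2.20 ± 0.475 CPM per kb (± SD, n = 3). Of the neighbours in this order, Srpk2 and Clk3 overlapped between libraries and the others did not. In Srrm2+/-, by the longest coding transcript, Clk3 stood above Srpk2 at 3.31 ± 0.206 against 2.79 ± 0.225 CPM per kb (± SD, n = 3), Clk4 and Srpk1 overlapped, and the rest of the order was as in WT. The order depended on the length used, at the bottom as well as in the middle. Per kb of merged exons, which include retained introns, Dyrk3 was second in WT at 13.9 CPM per kb, ahead of Srpk1 at 11.99 and Clk4 at 11.4, while Clk1 stayed first at 26.2 and Clk3 last at 0.651. On that scale Clk3 was also last in Srrm2+/-, at 0.977 CPM per kb against 1.30 for Srpk2 without overlap, so which of the pair is higher in Srrm2+/- turned with the length.

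**Figure D3:**
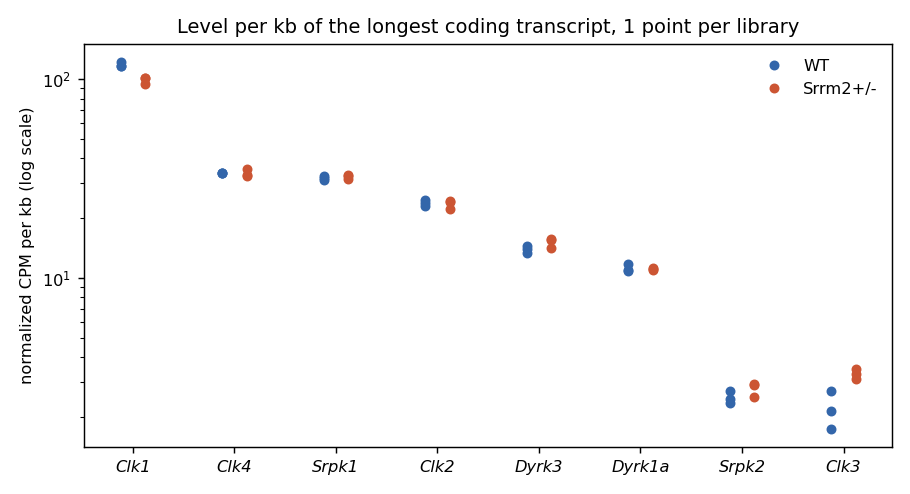
Normalized CPM per kb of the longest coding transcript (y axis, log scale) for each kinase in WT (blue) and Srrm2+/- (red), 1 point per library, ordered by the WT mean. Clk1 lies above the other kinases in both groups, at 119 CPM per kb in WT and 99.4 in Srrm2+/-, and Srpk2 and Clk3 lie lowest.

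Ratios of paralogs within a library do not depend on how libraries are scaled. The log2 ratio of Clk1 to Clk4 was 1.73, 1.67 and 1.67 in WT and 1.40, 1.41 and 1.52 in Srrm2+/-. The groups did not overlap, and Clk1 went from 3.23 to 2.72 counts per count of Clk4, a difference of -0.25 on the log2 scale. The log2 ratio of Clk2 to Clk3 was 3.21, 3.61 and 2.93 in WT and 2.59, 2.63 and 2.65 in Srrm2+/-, also without overlap. For both ratios the two-sided exact permutation p was 0.1, the smallest that 3 against 3 libraries allow, and 0.2 adjusted over the 4 ratios compared. Srpk1 to Srpk2 differed by -0.13 and Dyrk1a to Dyrk3 by -0.13 on the log2 scale, with overlapping groups and exact permutation p of 0.3 and 0.2 (adjusted 0.3 and 0.267).

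**Figure D4:**
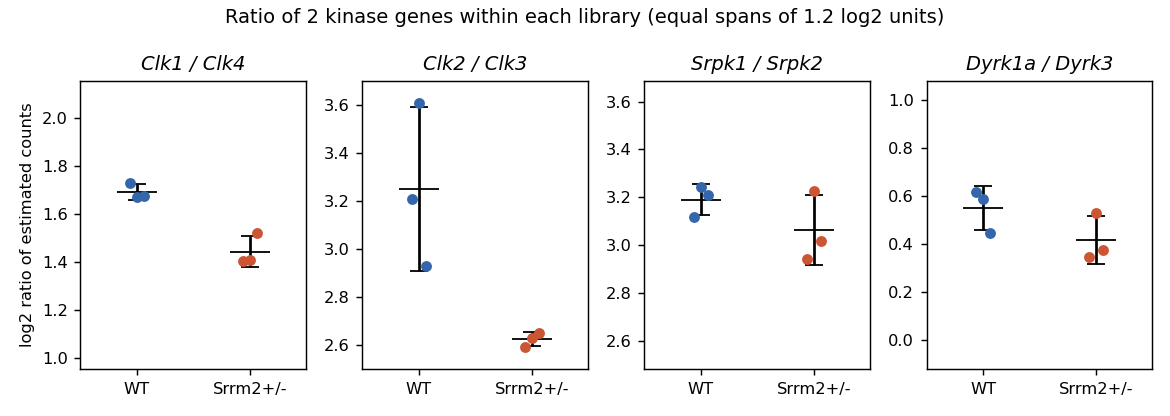
Log2 ratio of estimated counts of a pair of kinase genes within each library (y axis, equal spans) for WT (blue) and Srrm2+/- (red); points are libraries, bars are means and whiskers are SD (n = 3). The groups are apart for Clk1 to Clk4 (1.67 to 1.73 against 1.40 to 1.52) and for Clk2 to Clk3 (2.93 to 3.61 against 2.59 to 2.65) and overlap for the other pairs.

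Within the CLK family, Clk1 supplied 63.4 ± 0.856% of the counts in WT and 58.8 ± 1.22% in Srrm2+/- (± SD, n = 3). Clk4 supplied 19.6 ± 0.200% and 21.6 ± 0.809%, Clk2 15.3 ± 0.677% and 16.8 ± 1.14%, and Clk3 1.64 ± 0.359% and 2.72 ± 0.225% (± SD, n = 3). The ranges of Clk1, Clk3 and Clk4 did not overlap between the groups, and those of Clk2 did. Shares of a sum depend on each other, so a smaller Clk1 share makes the other shares larger together. The CPM of Clk4 overlapped between the groups (65.9 ± 0.299 in WT and 65.7 ± 2.81 in Srrm2+/-, ± SD, n = 3), so its share shows no rise of Clk4 RNA. Summed over the family, CLK counts were 336 ± 3.55 CPM in WT and 303 ± 6.84 CPM in Srrm2+/-, SRPK counts 165 ± 4.99 and 169 ± 3.11 CPM, and DYRK counts 109 ± 3.19 and 112 ± 2.18 CPM (± SD, n = 3). Since Clk1 holds most of the CLK counts, the family sum follows it.

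Of 8 further kinases of the SRPK, DYRK and related HIPK families, 7 were tested, 3 were called higher and 0 lower by edgeR, with 0 lower by DESeq2 and limma voom too. The 3 were also those with an unadjusted edgeR p under 0.05, and the median log2 fold change was 0.17. That is 42.9% of those tested, beside 25.3% of all genes (13.6% higher). Hipk3, a homeodomain-interacting protein kinase, rose from 21.1, 21.3 and 19.9 CPM in WT to 30.3, 27.6 and 26.3 CPM in Srrm2+/-. Its log2 fold change was 0.43 (edgeR adjusted p 0.00128, SE 0.06), and it was called under all 14 alternatives. Dyrk2 (0.24, SE 0.07, adjusted p 0.0268) and Hipk1 (0.17, SE 0.04, adjusted p 0.0214) also rose by edgeR, from 11.3 to 13.3 and from 47.4 to 53.4 CPM. The call of Hipk1 was lost without WT replicate 2, Srrm2+/- replicate 2 or Srrm2+/- replicate 3, and that of Dyrk2 also without WT replicate 1 and with a replicate block. Hipk2, Hipk4, Srpk3 and Dyrk1b did not pass the threshold, with log2 fold changes of 0.03, 0.20, 0.02 and -0.02. Dyrk4, a DYRK kinase best known from testis, did not pass the filter on low counts (0.0953 CPM in WT).

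The remaining lists hold the proteins these kinases act on or with. Of all genes tested, 25.3% were called and 11.7% were called lower, the shares to set beside the counts of this paragraph. Of 6 other kinases of splicing proteins, 1 (16.7%) was called lower. That was Csnk2a1, the catalytic subunit of casein kinase 2 (log2 fold change -0.12, edgeR adjusted p 0.0464, SE 0.04), whose call was lost under 9 of 14 alternatives (highest adjusted p 0.138), namely upper quartile scaling, both other filters, a replicate block and the omission of any library but WT replicate 2. Prpf4b, Cdk9, Cdk11b, Cdk12 and Cdk13 had log2 fold changes between -0.03 and 0.12. Of 7 phosphatase genes, 0 were called by edgeR, DESeq2 or limma voom, 1 had an unadjusted edgeR p under 0.05, and their range was -0.11 to 0.14. Of 4 partners and substrates of the DYRK kinases, 0 were called by the 3 tools and 1 had an unadjusted edgeR p under 0.05.

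Of 13 SR protein genes, which encode the main substrates of CLK and SRPK kinases, 1 was called higher and 1 lower, and the median log2 fold change was -0.04. Srsf7, whose protein also promotes mRNA export, fell, from 89.0 ± 4.17 CPM in WT down to 74.8 ± 3.59 CPM (± SD, n = 3), by log2 -0.25 (edgeR adjusted p 0.00672, SE 0.05). Srsf9 was called higher at 0.18 (edgeR adjusted p 0.0487, SE 0.06), a call that was lost under 6 of 14 alternatives, among them RLE normalization and limma voom and the omission of WT replicate 2, WT replicate 3, Srrm2+/- replicate 1 or Srrm2+/- replicate 3. Hence 15.4% of the SR genes were called, against 25.3% of all genes.

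Of 14 other RS-domain and speckle genes, 4 were called lower and 1 higher, 35.7% of them beside 25.3% of all genes, with a median log2 fold change of -0.07. The count holds Srrm2, whose fall the gene trap fixes, and without it 4 of 13 were called. Besides Srrm2, the targeted gene (-0.69, SE 0.05), Rbm39, a U2AF-like splicing factor, fell (-0.19, edgeR adjusted p 0.00487, SE 0.04) and stayed called under all 14 alternatives. Pnn, a desmosome-associated speckle protein (-0.15, SE 0.04), and Rnps1, an exon-junction protein (0.15, SE 0.04), were called lower and higher, as was Luc7l3 lower at -0.18 (SE 0.05), which is named here after its values were seen. These 3 calls were lost under 4, 5 and 5 of 14 alternatives. All 3 were lost with a replicate block and without WT replicate 2 or Srrm2+/- replicate 1. Those of Pnn and Luc7l3 were also lost without Srrm2+/- replicate 2, that of Luc7l3 without WT replicate 1, and that of Rnps1 without WT replicate 3 or Srrm2+/- replicate 3.

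Among 8 genes for SRPK chaperones and SR protein import, 1 was called higher and 2 lower, 37.5% beside 25.3% of all genes. SRPK1 is held by HSP90 and HSP70 machinery, and Hsp90aa1, the inducible HSP90 gene, fell from 10739 ± 144 to 8991 ± 40.1 CPM (± SD, n = 3), a log2 fold change of -0.26 (edgeR adjusted p 0.000653, SE 0.03). Hspa8, the constitutive HSP70 gene, rose from 1985 ± 31.9 to 2641 ± 111 CPM (± SD, n = 3), or 0.41 on the log2 scale (edgeR adjusted p 0.000168, SE 0.04). Both were called under all 14 alternatives. Hsp90ab1, another HSP90 gene of this list, went the opposite way from Hsp90aa1 and was not called. Its log2 fold change was 0.10 (edgeR adjusted p 0.376, SE 0.07), with overlapping groups. Ahsa1 of the same list hardly moved and was not called (-0.00565, edgeR adjusted p 0.936, SE 0.04). Hsp90ab1 and Ahsa1 are named here after their values were seen. Dnajc8, a J-domain protein that binds SRPK1, was called lower at -0.15 (edgeR adjusted p 0.0318, SE 0.04), a call lost under 6 of 14, which were the replicate block and the omission of any library but WT replicate 1. Tnpo3, the importin of SR proteins, was at 316 and 302 CPM (log2 fold change -0.06, edgeR adjusted p 0.358, SE 0.05).

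**Figure D5:**
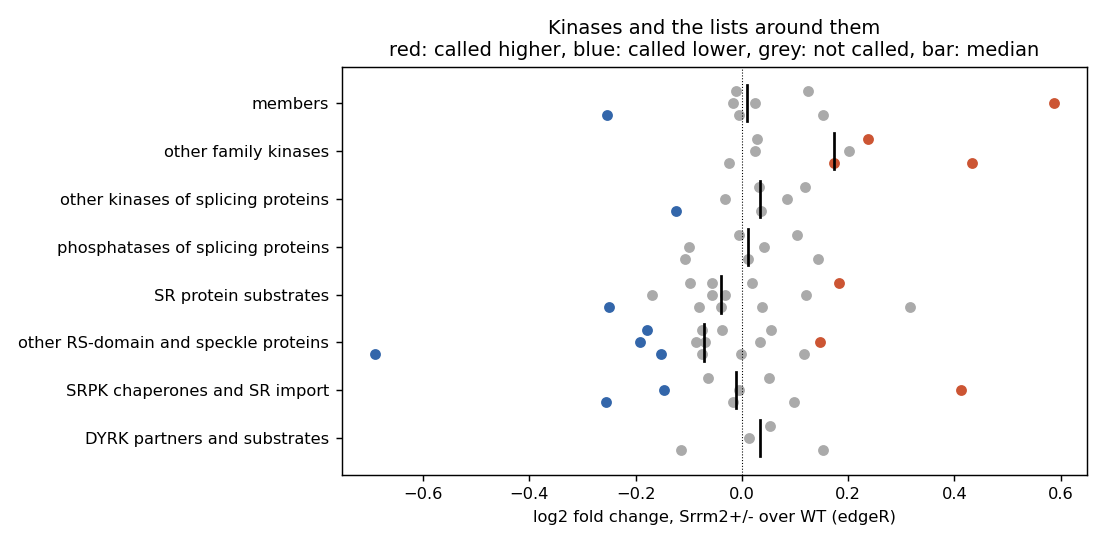
Log2 fold change of Srrm2+/- over WT (x axis) for each tested gene of the 8 kinases (members) and of 7 lists around them; each dot is a gene, red for called higher, blue for called lower and grey for not called, the vertical spread within a list has no meaning, and bars are list medians. Medians lie between -0.07 and 0.17, and Clk3 at 0.59 and Srrm2 at -0.69 lie furthest out.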

How the data were processed

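Total RNA libraries of 3 WT and 3 Srrm2+/- cultures were analysed, grouped by sample title. The authors pseudo-aligned paired reads with kallisto 0.46.1 to GENCODE release M24 (build mm10) and deposited estimated counts for each gene without normalization. These were rounded to whole numbers. Symbols, positions and transcripts were taken from GENCODE M21, which uses the same build (GRCm38), counted from 1 (42156 of 42450 identifiers matched). Genes past filterByExpr (minimum count 10, minimum total 15) were tested with edgeR 4.0.16 (TMM, glmQLFit, glmQLFTest, two-sided, genotype alone) with Benjamini-Hochberg adjustment over 18905 genes. Standard errors were the log2 fold change over the square root of F, and intervals used the degrees of freedom of that test. CPM used TMM-scaled library sizes.

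Alternatives were RLE and upper quartile scaling, DESeq2 1.42.0, limma voom 3.58.1, other filters, removal of short and mitochondrial RNA, a replicate block and each library left out. Merged exon length was added after seeing the data. Named were the 8 kinases, the further family kinases, and the called genes with the 2 highest and 2 lowest changes of each list. Of genes that share words with a kinase, those sharing most were named. The members and lists were chosen with earlier results of these data known. The lowest chi-square per degree of freedom between replicates was 14.7, so no pair looked like 1 library. Scripts were tested on simulated data.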

Additional observations from a re-analysis of the deposited data

How the results depend on the processing

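The direction of Clk1, Clk3, Srpk1, Srpk2 and Dyrk3 was kept under all 14 alternatives. Signs turned for kinases that were not called, at sizes below 0.03 on the log2 scale. Clk2 ranged from -0.0449 to 0.0251 with 1 library left out, with 0.0124 without WT replicate 2 and 0.0251 without Srrm2+/- replicate 2. Clk4 ranged from -0.0392 to 0.0150, with 0.000514 without WT replicate 2, 0.0132 without Srrm2+/- replicate 1 and 0.0150 without Srrm2+/- replicate 3, and was at 0.000731 when genes needed 1 count in total and 0.00176 when they needed 1 CPM throughout a group. Dyrk1a ranged from -0.0293 to 0.0243, the latter without WT replicate 1. Clk3 ranged from 0.45 to 0.76 and lost its call in 3 of these fits, so the number of kinases called higher ranged from 0 to 1. At an adjusted p under 0.01 it was 0.

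With 1 library left out, the number of all genes called lay between 3515 and 4122, and fewer samples entered those fits. The related kinases called higher ranged from 1 to 3, other splicing kinases called lower from 0 to 1, phosphatases from 0 to 1 in either direction, SR genes called higher from 0 to 1, RS-domain and speckle genes from 0 to 1 higher and from 2 to 4 lower, and chaperone genes called lower from 1 to 2. Other splicing kinases called lower were 0 under upper quartile scaling, both other filters and the replicate block. SR genes called higher were 0 under RLE and limma voom, and 2 were lower with DESeq2. The cause was not tested.

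Deviations from the group means of libraries with a common replicate number were uncorrelated (-0.03, 0.03 and -0.01), so the numbers gave no pairing. With the replicate block Clk1 was at -0.25 (adjusted p 0.0127) and Clk3 at 0.60 (adjusted p 0.0182), 4166 genes were called, RS-domain and speckle genes called were 0 higher and 2 lower, and 1 chaperone gene was lower. With 3 cultures of 1 line per genotype, p-values set the difference between these lines against the spread among their cultures. They do not extend to other lines of either genotype.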
